A study of Mus musculus with 15 samples.

Results

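In RAW 264.7 macrophages, 10 genes had low counts without treatment and were clearly counted after treatment with mesoporous silica nanoparticles (MSNP). The genes were Dio2, Tspan10, Sstr5, Il7r, Card14, Dok7, Efcab6, Ptpn14, Ighg2c and the long noncoding RNA 4833415N18Rik, out of 57186 genes in the count table, of which 19839 were counted often enough to be tested. They were chosen by their measured counts, low in the nontreated controls and clearly higher in the MSNP-treated group, so the contrast of those 2 groups is described below without a test. All 10 genes passed the filter of at least 10 counts summed over the libraries.

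RAW 264.7 is a mouse macrophage line derived from a tumor induced by Abelson leukemia virus. The cells were exposed for 6 h to 1 of 4 silica nanoparticles (SNPs) or were left nontreated (Control), with 3 RNA-sequencing libraries in each of the 5 groups. SNP100 and SNP50 are nonporous spheres with nominal diameters of 100 and 50 nm, given at 50 and 25 µg/mL. MSNP is a mesoporous and HMSNP a hollow mesoporous particle, both nominally 100 nm across and both given at 200 µg/mL. Each dose was the highest that the cells tolerated, so particle type and dose differ together in every comparison except that of MSNP with HMSNP. The names of the libraries of a group share a prefix that no other group has, so any handling tied to that prefix and the treatment cannot be told apart. Nothing in the labels says that the 3 libraries of a group came from separate cultures, and the p-values measure only the spread between these libraries.

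Macrophages engulf particles and carry them through endosomes to lysosomes, and this uptake is accompanied by changes in the transcription of surface receptors, signaling adaptors and lysosomal genes. Mesoporous silica has open channels on its surface, whereas Stöber-type silica is solid. The 10 genes do not form a single known pathway. Beside the noncoding RNA they encode a hormone-converting enzyme, 2 receptors, a tetraspanin, 2 signaling adaptors, a phosphatase, a calcium-binding protein and an antibody constant region.

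The total count of a library lay between 29369934 and 42617812. Levels are given as CPM, counts divided by the size of the library after its scaling by TMM, a trimmed mean of the differences between libraries, and a single count equals a few hundredths of a CPM. All 10 macrophage markers examined were counted, with a summed level of 16187 to 20484 CPM in the Control libraries and 13488 to 14449 CPM in the MSNP libraries. Markers of fibroblasts, epithelium and skeletal muscle summed to less than 1 CPM in every library. The Control libraries were the least alike, with replicate 3 at a root mean square log2 difference of 0.536 and 0.653 from replicates 1 and 2 over 10659 genes, whereas libraries of a treated group differed by 0.117 to 0.185. The ranges of the ratios to Control are therefore given with and without that library. Calls of the 10 genes that it changed and some ratios of single genes are also given. In bulk samples, fewer cells that express a gene and less RNA of it per cell cannot be told apart.

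The 10 genes lie on 7 chromosomes of the GRCm39 build, and 8 of them are protein-coding. Only Tspan10 (chr11:120331930-120338174, plus strand) and Card14 (chr11:119198591-119236206, plus strand) are near each other, 1095.72 kb apart with 18 protein-coding genes between them. Dio2 is at chr12:90691322-90705819 on the minus strand, 22543.1 kb from Ighg2c at chr12:113248945-113252552 on the same strand. Il7r is at chr15:9505874-9530262 and Efcab6 at chr15:83750447-83949582, both on the minus strand and 74220.2 kb apart. Sstr5 (chr17:25708847-25733577) is on the minus strand, and Dok7 (chr5:35213886-35246018), Ptpn14 (chr1:189460446-189608892) and 4833415N18Rik (chr16:11596255-11599365) are on the plus strand.

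The 250 bases upstream of the start of the annotated canonical transcript were read for 9 of the 10 genes from the GRCm39 genome. They were searched on both strands for 5 short motifs. Ighg2c was left out, since an antibody constant region is normally transcribed from a promoter outside it. The windows of Tspan10, Sstr5 and Il7r lie within the annotated span of their own genes, and 45 bases of the Il7r window are exon. The 3 sequences below are the ones that held a motif, with the matched bases in capitals, written 5′ to 3′ on the strand of the gene and ending at the last base before the start. The first covers chr12:90705820-90706069 (minus strand), the second chr11:120333220-120333469 (plus strand) and the third chr16:11596005-11596254 (plus strand).
Dio2: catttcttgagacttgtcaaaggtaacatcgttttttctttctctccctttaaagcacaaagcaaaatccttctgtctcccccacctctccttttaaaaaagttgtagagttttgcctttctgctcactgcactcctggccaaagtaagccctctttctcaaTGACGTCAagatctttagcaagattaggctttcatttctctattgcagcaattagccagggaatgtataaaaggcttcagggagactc
Tspan10: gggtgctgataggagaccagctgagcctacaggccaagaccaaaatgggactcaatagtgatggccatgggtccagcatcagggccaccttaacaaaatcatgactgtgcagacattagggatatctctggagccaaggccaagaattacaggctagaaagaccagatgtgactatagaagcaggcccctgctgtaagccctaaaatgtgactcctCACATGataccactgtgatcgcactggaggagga
4833415N18Rik: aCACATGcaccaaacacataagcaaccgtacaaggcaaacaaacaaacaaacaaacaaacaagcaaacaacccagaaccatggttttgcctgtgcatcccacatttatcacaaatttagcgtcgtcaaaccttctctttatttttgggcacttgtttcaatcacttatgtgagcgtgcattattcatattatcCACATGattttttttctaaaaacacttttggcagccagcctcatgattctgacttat

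The capitals in the Dio2 promoter are TGACGTCA, the cyclic AMP response element, 88 to 81 bases before the start. That motif occurred in 1 of the 9 promoters and in 1.62% of 19688 promoters of tested genes. CATGTG, the core of the M-box read by MITF and related factors, was found as its reverse complement in Tspan10, 34 to 29 bases before the start, and at a pair of positions in 4833415N18Rik, 249 to 244 and 57 to 52 bases before the start. It occurred in 2 of the 9 promoters and in 10.0% of all of them. CACGTG (6.54% of all promoters), TGANTCA (5.3%) and TGATGNAA (2.55%) occurred in none of the 9. A match describes the letters of this window and is no measured binding site.

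The level of each gene was far higher in the MSNP-treated group than in every other group. In all 10 genes each MSNP library was above each of the 12 other libraries. The ratio of MSNP to Control ran from 30.5 to 220 with a median of 37.3. It was taken from counts summed over a group and divided by the summed effective library sizes. Without Control replicate 3 the ratio ran from 23.55 for Il7r to 140 for Dio2. It was then higher for Tspan10 (65.5) and 4833415N18Rik (50.6), nearly unchanged for Sstr5 (41.9) and lower for the others. Every MSNP library was above every Control library in 17.0% of all tested genes, a share from which nothing is read here because the contrast chose the genes. The ratio to HMSNP, the particle given at the same dose, ran from 17.0 to 344 with a median of 46.3. The highest, for Ighg2c, rests on 2 counts summed over HMSNP and has a 95% interval of 94.7 to 2844. Against SNP100 it ran from 8.85 to 35.5 (median 20.0), and against SNP50 from 13.3 to 53.2 (median 24.6).

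**Figure D1:**
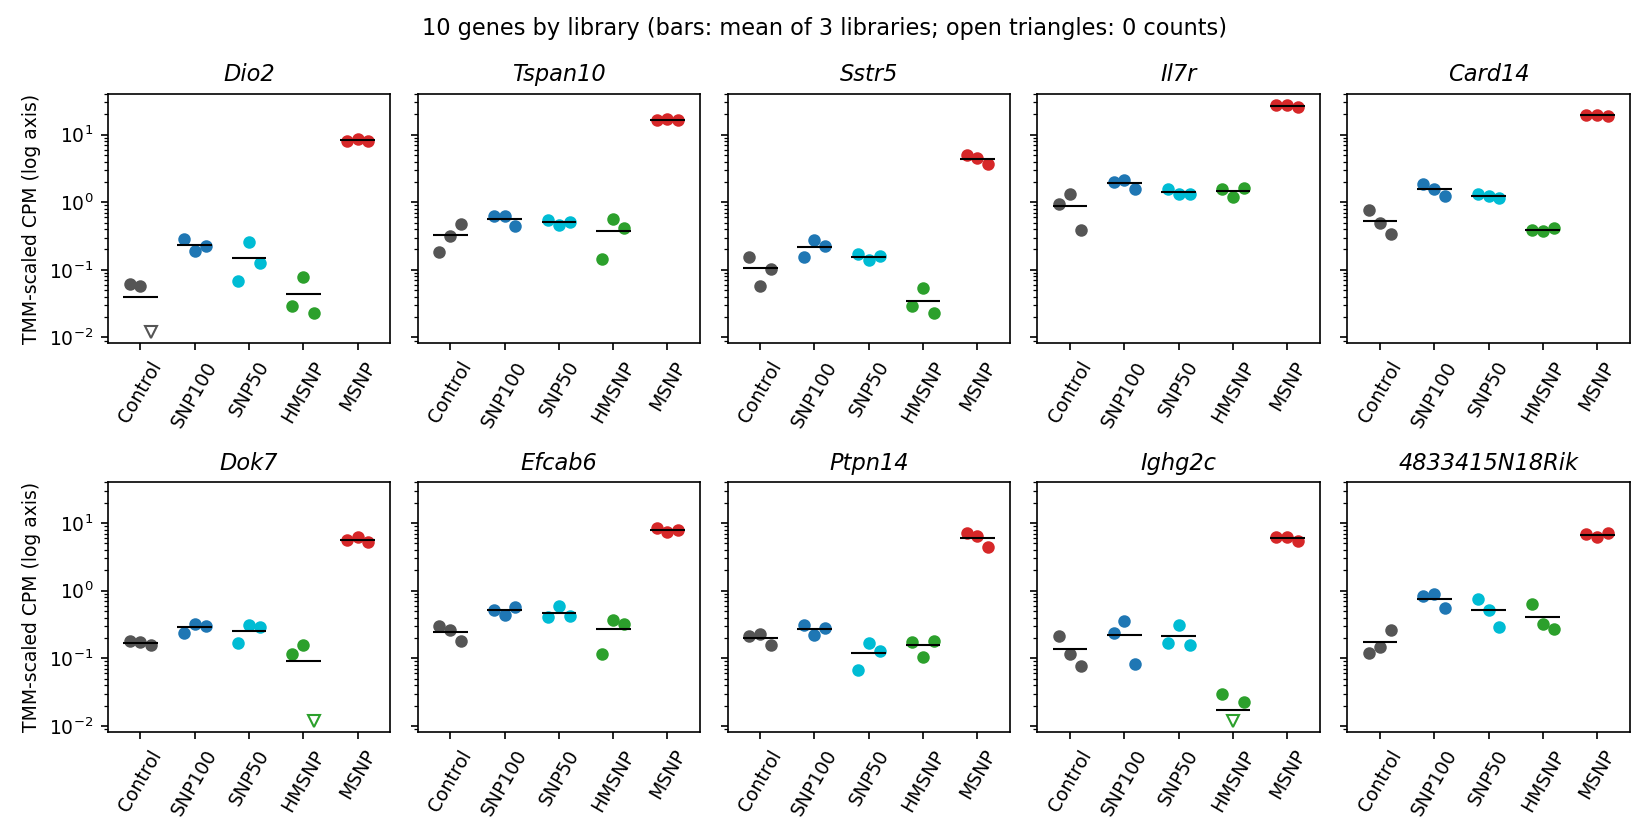
Level of each gene in each of the 15 libraries, as TMM-scaled CPM on a log axis, by group. Points are libraries, black bars are means of 3 libraries, and open triangles at the bottom mark libraries with 0 counts. The MSNP points stand alone at the top of every panel, SNP100 has the second highest mean in all 10 genes, and HMSNP has the lowest mean in Dok7, Sstr5, Card14 and Ighg2c.

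The hormone enzyme and the 2 receptors differed in how near to 0 they were in Control. Dio2 encodes type II deiodinase, which converts thyroxine to the active hormone triiodothyronine inside the cell. It had 2, 2 and 0 counts in the Control libraries, 11, 7 and 8 in SNP100, 2, 9 and 4 in SNP50, 1, 3 and 1 in HMSNP and 242, 324 and 273 in MSNP. The Control and HMSNP ranges overlapped, and every SNP100 library was above every library of both. Its mean went from 0.0396 ± 0.0343 CPM in Control to 8.28 ± 0.406 CPM in MSNP (SD, n = 3), a ratio of 220 with a 95% interval of 85.5 to 808. That interval covers counting error only, as do those that follow, and the ratio was 140 without Control replicate 3.

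Il7r encodes the receptor chain that binds interleukin-7 and, with a partner chain, thymic stromal lymphopoietin. It was the most abundant of the 10 in MSNP by CPM, with 826, 1021 and 871 counts there and 31, 46 and 15 in Control, 76, 78 and 57 in SNP100, 47, 46 and 42 in SNP50 and 53, 45 and 70 in HMSNP. The control level of 0.888 ± 0.472 CPM was low rather than at the floor, and the MSNP level of 26.9 ± 0.938 CPM was 30.9 times as high (95% interval 25.1 to 38.5). Il7r is best known from lymphocytes, and the summed level of the 10 T-cell markers was 17.2 to 21.7 CPM in the Control libraries and 128 to 145 CPM in the MSNP libraries. Most of that sum came from Cd28, which had a mean of 11.2 CPM in Control and 130 CPM in MSNP. The defining T-cell genes Cd3d, Cd3e, Cd3g and Trac had group means of 0 to 0.0113 CPM, and Cd8a had no count in any library. Cd4 had means of 0.0391 CPM in Control and 0.330 CPM in MSNP, and Zap70 of 0.0275 and 0.111 CPM. Lck went the other way, with means of 7.65 CPM in Control and 5.88 CPM in MSNP, as did Cd2, with 0.0347 and 0.0299 CPM. The part of other cells in the Il7r level was not tested.

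Sstr5 encodes a G protein-coupled receptor for the inhibitory hormone somatostatin. Its counts were 5, 2 and 4 in Control, 6, 10 and 8 in SNP100, 5, 5 and 5 in SNP50, 1, 2 and 1 in HMSNP and 151, 166 and 123 in MSNP. No HMSNP library had more CPM than any Control, SNP100 or SNP50 library. The mean went from 0.105 ± 0.0472 CPM in Control to 4.37 ± 0.679 CPM in MSNP, a ratio of 41.9 (95% interval 23.2 to 84.5).

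Of the membrane and adaptor genes, Tspan10 encodes a tetraspanin of the TspanC8 subgroup, whose members escort the protease ADAM10 to the cell surface. Its counts were 6, 11 and 18 in Control, 24, 23 and 16 in SNP100, 16, 16 and 16 in SNP50, 5, 21 and 18 in HMSNP and 491, 624 and 553 in MSNP. The 4 groups other than MSNP overlapped in part, and the MSNP mean of 16.5 ± 0.317 CPM was 49.9 times the Control mean of 0.323 ± 0.143 CPM (95% interval 35.7 to 71.9). Card14 encodes a scaffold of the CARD family that assembles BCL10 and MALT1 for NF-κB signaling and is best known from keratinocytes. It had 25, 17 and 13 counts in Control, 72, 58 and 44 in SNP100, 39, 44 and 36 in SNP50, 13, 14 and 18 in HMSNP and 594, 716 and 630 in MSNP. SNP100 and SNP50 both lay above Control and HMSNP with no overlap. From a Control mean of 0.530 ± 0.214 CPM it reached 19.2 ± 0.489 CPM in MSNP, a ratio of 36.9 (95% interval 28.3 to 49.2).

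Dok7 encodes an adaptor that activates the receptor kinase MuSK at the neuromuscular junction. Its counts were 6, 6 and 6 in Control, 9, 12 and 11 in SNP100, 5, 11 and 9 in SNP50, 4, 6 and 0 in HMSNP and 171, 228 and 175 in MSNP. Its HMSNP libraries lay below all SNP100 and SNP50 libraries, and the MSNP mean of 5.66 ± 0.483 CPM was 33.4 times the Control mean of 0.171 ± 0.0135 CPM (95% interval 20.9 to 56.8). Ptpn14 encodes a cytoplasmic tyrosine phosphatase that restrains the Hippo effector YAP. It had 7, 8 and 6 counts in Control, 12, 8 and 10 in SNP100, 2, 6 and 4 in SNP50, 6, 4 and 8 in HMSNP and 219, 243 and 150 in MSNP. Its 3 MSNP libraries were the most spread of the 10 genes, at 6.08 ± 1.46 CPM against 0.200 ± 0.0392 CPM in Control, a ratio of 30.5 (95% interval 19.8 to 49.7).

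Efcab6 encodes an EF-hand protein that binds DJ-1. Its counts were 10, 9 and 7 in Control, 20, 16 and 21 in SNP100, 12, 21 and 13 in SNP50, 4, 14 and 14 in HMSNP and 253, 270 and 266 in MSNP. SNP100 and SNP50 were above Control in every library, and the MSNP mean of 7.84 ± 0.539 CPM was 31.8 times the Control mean of 0.249 ± 0.0619 CPM (95% interval 21.5 to 49.0). 4833415N18Rik is a long noncoding RNA for which no role is given here. It had 4, 5 and 10 counts in Control, 32, 33 and 20 in SNP100, 22, 18 and 9 in SNP50, 22, 12 and 12 in HMSNP and 212, 234 and 237 in MSNP. All 4 particles gave levels above every Control library, and the MSNP mean of 6.78 ± 0.405 CPM was 37.7 times the Control mean of 0.176 ± 0.0743 CPM (95% interval 23.9 to 62.9).

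Ighg2c encodes the constant region of the IgG2c heavy chain, a product of B cells. Its counts were 7, 4 and 3 in Control, 9, 13 and 3 in SNP100, 5, 11 and 5 in SNP50, 1, 0 and 1 in HMSNP and 186, 230 and 186 in MSNP. HMSNP was below every other library, and the MSNP mean of 5.96 ± 0.385 CPM was 45.0 times the Control mean of 0.136 ± 0.0697 CPM (95% interval 26.6 to 82.9). It belongs to a family of near-identical IgG genes, between which reads can be split or misplaced, and the related Ighg1, Ighg2b and Ighg3 had 2, 5 and 0 counts over all 15 libraries. The 10 B-cell markers summed to 15.7 to 19.3 CPM in the Control libraries and 12.3 to 13.2 CPM in the MSNP libraries. Most of that was Ighm, which went from 17.0 to 10.9 CPM, while Ms4a1, Ebf1 and Igkc had no count in any library. Cd22 had means of 0.334 CPM in Control and 1.71 CPM in MSNP.

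Set on a scale that allows levels of different genes to be compared, CPM per kilobase of exon, the MSNP levels fell into a higher and a lower set. Il7r (5.77 ± 0.201), Tspan10 (5.72 ± 0.110) and 4833415N18Rik (5.62 ± 0.335) did not differ beyond the spread of their libraries, with Ighg2c at 4.49 ± 0.290 and Card14 at 4.14 ± 0.105 next. Dio2 followed at 1.29 ± 0.0632, and Efcab6, Sstr5 and Dok7 lay within 0.813 to 0.930. Ptpn14, whose exons are the longest of the 10, was at 0.443 ± 0.106. In Control the order of levels was different, with Il7r highest (0.190 ± 0.101) and Dio2 lowest (0.00616 ± 0.00534).

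The choice of the genes by low Control and high MSNP counts puts them at the edge of the distribution of all genes. A Control mean under 0.5 CPM together with an MSNP mean of at least 1 CPM and at least 8 times the Control mean was found in 31 of the tested genes (0.156%). Among them were 8 of the 10 genes, which follows from that choice and is given as a description. Il7r (0.888 CPM) and Card14 (0.530 CPM) were outside because of their Control level, and Tspan10 (0.323 CPM) had the highest Control mean of the 8. Of the 23 others, those with the highest MSNP level were Rragd at 19.5 CPM, which encodes a Rag GTPase of amino acid sensing at the lysosome, Fabp4 at 9.40 CPM, a fatty acid-binding protein, and the macrophage elastase Mmp12 at 8.0 CPM. Tmod1 (6.65 CPM), Cyp4f39 (5.35 CPM), Lrrc14b (4.48 CPM), Unc13b (3.50 CPM) and Gm11382 (3.17 CPM) came next.

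**Figure D2:**
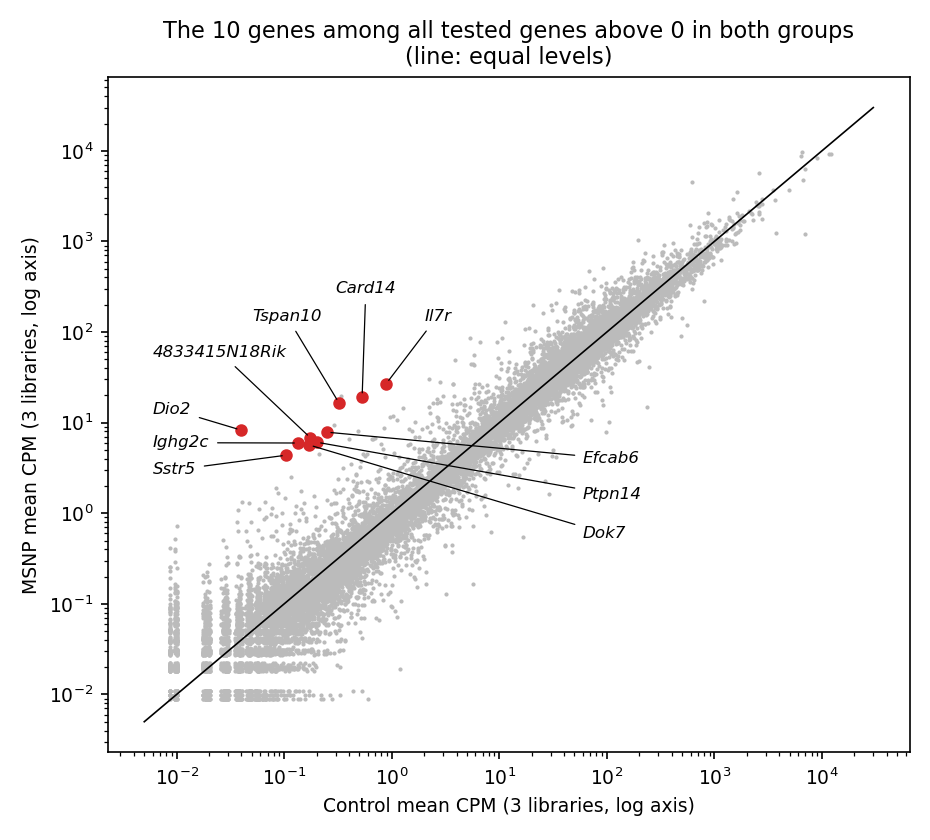
Mean level of all tested genes with counts in both groups in the nontreated controls (horizontal axis) and the MSNP-treated group (vertical axis), as CPM on log axes. Each gray point is a gene, the 10 genes are red and the line marks equal levels. The red points lie between 0.0396 and 0.888 CPM in Control and between 4.37 and 26.9 CPM in MSNP, far above the line.

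Whether the nonporous particles also moved these genes was asked with edgeR's quasi-likelihood test and Benjamini-Hochberg adjustment over all tested genes. The Control libraries that chose the genes for being low also enter this test, so ratios above 1 are favored by the choice, and the 3 comparisons with Control below share those libraries. In the SNP100-treated group Card14 and 4833415N18Rik were upregulated, 2 of 10, where 0.509% of all tested genes were called up and 0.912% in either direction. Card14 was 3.01 times as high as in Control (95% interval 2.21 to 4.15), with a fitted log2 fold change of 1.57 (SE 0.220, edgeR adjusted p = 0.00259). 4833415N18Rik was 4.25 times as high (2.56 to 7.41), with a log2 fold change of 2.07 (SE 0.404, edgeR adjusted p = 0.0246). The ratio was above 1 in all 10 genes, from 1.36 for Ptpn14 to 6.18 for Dio2 (3.94 without Control replicate 3). Without that library the ratios ran from 1.21 for Ptpn14 to 5.72 for 4833415N18Rik. In 7 of the 10 genes every SNP100 library was above every Control library, against 5.34% of all tested genes. Dio2 missed the threshold at an edgeR adjusted p of 0.0679 and Il7r, at a ratio of 2.18, at 0.0800. Leaving out SNP100 replicate 1 or 2 or Control replicate 1 took the adjusted p of 4833415N18Rik to 0.0918, 0.123 and 0.0885, and without Control replicate 2 or 3 Il7r was called as well (adjusted p = 0.00908 and 0.0262). DESeq2 called 4 genes, adding Dio2 and Il7r, and edgeR fitted to the 6 libraries of the comparison alone called none, with adjusted p = 0.492 for Card14 and 0.415 for 4833415N18Rik.

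In the SNP50-treated group Card14 alone was upregulated, 2.38 times over Control (95% interval 1.72 to 3.34), with a log2 fold change of 1.24 (SE 0.231, edgeR adjusted p = 0.0151). Over all tested genes 0.454% were called up and 1.41% in either direction. The call rested on all 3 SNP50 libraries, since leaving out replicate 1, 2 or 3 gave an adjusted p of 0.0748, 0.0680 or 0.0525. Ratios were above 1 in 9 of 10 genes and ran from 0.629 for Ptpn14 to 4.13 for Dio2 (2.63 without Control replicate 3). Without that library they ran from 0.561 for Ptpn14 to 3.82 for 4833415N18Rik. 4 of the 10 genes, Dio2, Card14, Efcab6 and 4833415N18Rik, were above Control in every library, against 6.26% of all tested genes. 4833415N18Rik, at a ratio of 2.84 and an edgeR adjusted p of 0.136, was called by DESeq2 and, with an adjusted p of 0.0150, without Control replicate 3. The 6 libraries alone gave no call in edgeR (adjusted p = 0.547 for Card14).

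In the HMSNP-treated group, which received the same dose as the MSNP-treated group, edgeR called 0 of the 10 genes against Control and DESeq2 called 1, Il7r. Over all tested genes edgeR called 5.16%, 2.46% up and 2.7% down. Before adjustment 4 of the 10 had an edgeR p under 0.05, against 24.0% of all tested genes. The ratio was above 1 in 5 of the 10 genes and ran from 0.131 for Ighg2c to 2.22 for 4833415N18Rik. Without Control replicate 3 it was above 1 in 3 of the 10, as the ratio of Dio2 went from 1.15 to 0.731 and that of Efcab6 from 1.13 to 0.984. The range was then 0.106 for Ighg2c to 2.99 for 4833415N18Rik. With all libraries the Ighg2c value of 0.131, 2 counts against 14, had a 95% interval of 0.0145 to 0.571 (edgeR adjusted p = 0.0754). Ighg2c was called lower without SNP100 replicate 3 (0.0460), Control replicate 2 (0.0392) or Control replicate 3 (0.0361), and Il7r was called higher without Control replicate 2 (0.00995). The groups did not overlap in 4833415N18Rik, which was higher in HMSNP, and in Sstr5 and Ighg2c, which were lower, against 10.9% of all tested genes higher and 12.0% lower.

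The comparisons among SNP100, SNP50 and HMSNP set no group that chose the genes against another, although all 15 libraries enter the estimate of the spread. In the HMSNP-treated group Card14, Sstr5, Dio2 and Ighg2c were downregulated relative to the SNP100-treated group, 4 of 10, where 2.2% of all tested genes were called down and 4.52% in either direction. Doses were 200 and 50 µg/mL, so dose and particle cannot be told apart here. Card14 was 4.01-fold lower in HMSNP (95% interval 2.87 to 5.70), with a log2 fold change of -1.99 (SE 0.228, edgeR adjusted p = 0.000106). Sstr5 was 6.22-fold lower (2.14 to 24.7), with a log2 fold change of -2.52 (SE 0.467, edgeR adjusted p = 0.00512). These 2 calls held in all leave-one-out fits, with an adjusted p of at most 0.0422 for Sstr5 and 0.00124 for Card14 over every alternative.

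The other 2 calls were less firm. Dio2 was 5.39-fold lower (2.04 to 18) with a log2 fold change of -2.34 (SE 0.563, edgeR adjusted p = 0.0272), and without SNP100 replicate 1, 2 or 3 or HMSNP replicate 1 or 3 its adjusted p was 0.118, 0.0562, 0.0660, 0.111 or 0.134. Ighg2c, with 2 counts summed over HMSNP, was 13.0-fold lower (3.23 to 113) with a log2 fold change of -3.45 (SE 0.735, edgeR adjusted p = 0.0128), and without SNP100 replicate 2 or HMSNP replicate 2 or 3 its adjusted p was 0.0710, 0.0632 or 0.0534. None of the 10 genes was higher in HMSNP than in SNP100, where 52.2% of all tested genes had a lower mean in HMSNP, and in 7 of the 10 genes every HMSNP library was below every SNP100 library, against 18.6%. The median fitted log2 fold change of the 10 was -1.30, beside -0.02 over all tested genes. Without Control replicate 3, which is in neither group but enters the estimate of the spread, 7 genes were called, adding Dok7, Efcab6 and 4833415N18Rik at an adjusted p of 0.0270, 0.0461 and 0.0475.

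**Figure D3:**
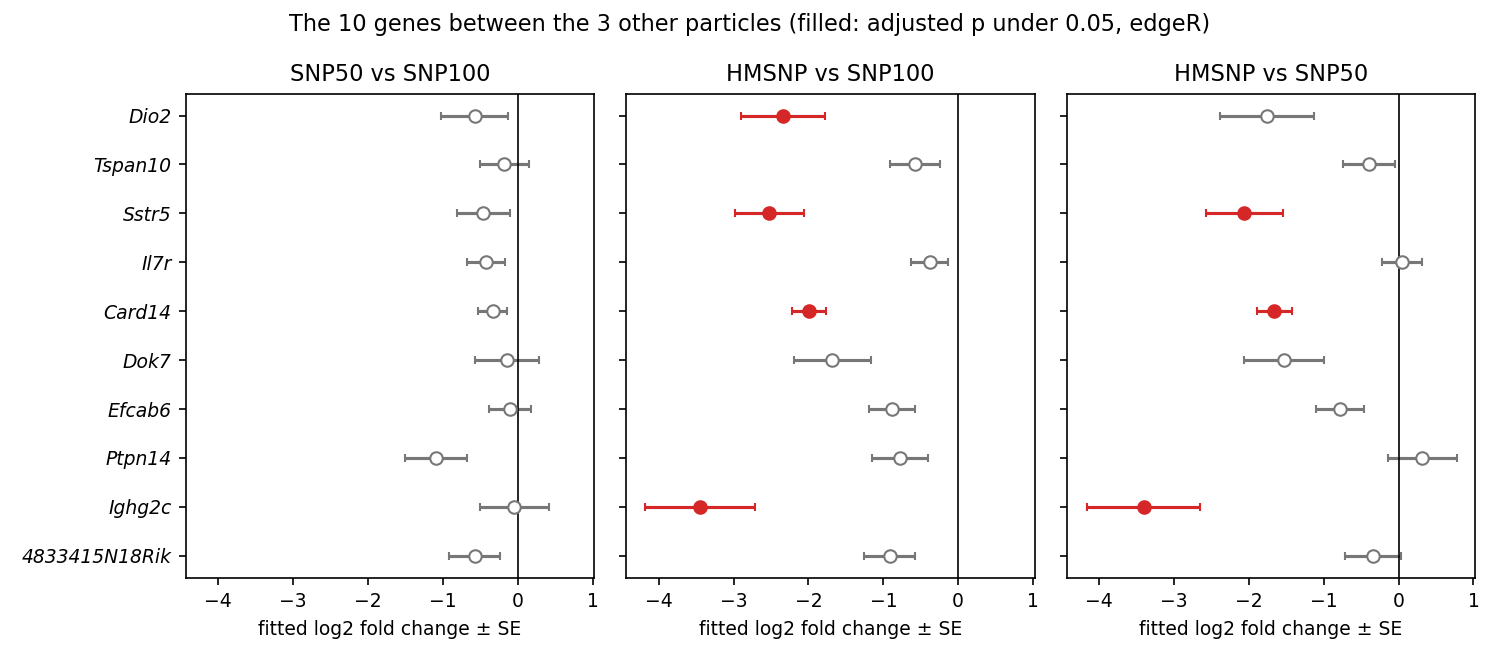
Fitted log2 fold change with its standard error for the 10 genes in the 3 comparisons that leave out both Control and MSNP as groups. Red filled points have an adjusted p under 0.05 in edgeR, and gray open points do not. No point is filled between SNP50 and SNP100, 4 are filled to the left of 0 between HMSNP and SNP100, and 3 between HMSNP and SNP50.

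Relative to the SNP50-treated group, 3 of the 10 genes were downregulated in the HMSNP-treated group, where 4.22% of all tested genes were called down and 8.87% in either direction. The HMSNP libraries are the same as in the comparison with SNP100, and the doses were 200 and 25 µg/mL. Card14 had a log2 fold change of -1.66 (SE 0.239, edgeR adjusted p = 0.000623), and it was called in every alternative. Ighg2c had a log2 fold change of -3.40 (SE 0.755, edgeR adjusted p = 0.0128), which became 0.0601 without SNP50 replicate 2 and 0.0606 without HMSNP replicate 2. Sstr5 had a log2 fold change of -2.06 (SE 0.512, edgeR adjusted p = 0.0376), and leaving out any SNP50 or HMSNP library took its adjusted p to between 0.0692 and 0.135. In 5 of the 10 genes every HMSNP library was below every SNP50 library, against 22.0% of all tested genes. Il7r and Ptpn14 had ratios of 1.04 (95% interval 0.822 to 1.31) and 1.25 (0.570 to 2.84), and the other 8 were below 1. Without Control replicate 3, 5 genes were called, adding Dio2 (adjusted p = 0.0257) and Dok7 (0.0362).

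Between SNP50 and SNP100, which differ in size and dose, none of the 10 genes was called by edgeR or DESeq2, nor was any other tested gene by edgeR (0.0%). The mean was lower in SNP50 in 10 of 10 genes, with ratios of 0.463 to 0.972, where 49.8% of all tested genes had a lower mean in SNP50. Dok7 without SNP50 replicate 1, and Ighg2c without SNP100 replicate 2 or SNP50 replicate 1 or 3, had fitted log2 fold changes above 0 (0.064, 0.42, 0.096 and 0.12). Ptpn14 had the smallest ratio and the only unadjusted p under 0.05 (0.0191, adjusted p = 0.903, edgeR), which 4.37% of all tested genes had. SNP100 was above both SNP50 and HMSNP in 10 of the 10 genes, an order that 24.7% of all tested genes had. The full order SNP100 above SNP50 above HMSNP held in 8 of 10, all but Il7r and Ptpn14, and in 14.4% of all tested genes.

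How closely the genes followed each other depended on the MSNP libraries. Over 15 libraries the 45 pairs of genes had Pearson correlations of 0.890 to 0.987 on log2 CPM (median 0.948), which the choice of the genes fixes. Over the 12 libraries without MSNP the correlations ran from -0.150 for Tspan10 with Ptpn14 to 0.854 for Dio2 with Card14, with a median of 0.458. Sstr5 with Card14 (0.841) and Dio2 with Efcab6 (0.849) were also high, in counts as low as 0 to 72 per library. The libraries share the group structure and these values carry no test.

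Outside the 10, the genes with the pattern most like their mean profile over the 15 libraries had Control means of 2.41 CPM (Gng4) to 619 CPM (Gpnmb). They were Gnpda1 (r = 0.996), Gpnmb (0.995), Tom1 (0.995), Gng4 (0.995), Rragc (0.994), Tecpr1 (0.994), Kif3a (0.993) and Bhlhe40 (0.992). Gpnmb encodes a transmembrane glycoprotein of macrophages rich in lysosomes, and its mean was 619 CPM in Control, 905 in SNP100, 808 in SNP50, 706 in HMSNP and 4556 in MSNP. Rragc, like Rragd, encodes a Rag GTPase, and Tecpr1 a protein of autophagosome and lysosome maturation. Tecpr1 went from 20.5 CPM in Control to 32.6, 32.3 and 22.7 CPM in SNP100, SNP50 and HMSNP and 199 CPM in MSNP. The closest gene to each single one was Gng4 for Dio2 (0.990), Cyb561a3 for Tspan10 (0.987), Kif3a for Sstr5 (0.988), Wdr91 for Il7r (0.995), Bhlhe41 for Card14 (0.992), Usp18 for Dok7 (0.975), Tom1 for Efcab6 (0.989), Slc38a6 for Ptpn14 (0.987), Slc39a2 for Ighg2c (0.981) and Rragd for 4833415N18Rik (0.981). A correlation near 1 here says that a gene is high in the 3 MSNP libraries, and nothing on shared control was read from it.

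Genes next to the 10 were examined, since the use of strand in counting is not given in the sources used here. 160 exon bases of Dio2 overlap the antisense RNA Gm26512, which had 25 counts in MSNP and 1 in Control. Card14 shares 960 exon bases with the antisense gene Sgsh, a lysosomal sulfamidase, which did not pass the test (log2 fold change 0.09, SE 0.0864, edgeR adjusted p = 0.502). 4833415N18Rik shares 343 exon bases with the antisense gene Cpped1, which rose (log2 fold change 0.54, SE 0.0911, edgeR adjusted p = 0.000405). Reads of such pairs cannot be told apart if they were counted without strand. Efcab6, Ptpn14 and Sstr5 overlap the noncoding genes Gm41372, Gm26574 and Gm63608 over 272, 177 and 138 exon bases. Gm26574 had no count, Gm63608 had 5, all in MSNP, and Gm41372 was not used here.

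Of the nearest tested gene on each side of each of the 10, 6 of 20 were upregulated by MSNP and 0 downregulated, where 11.8% of all tested genes were called up and 22.8% in either direction. On chromosome 16 both neighbors of 4833415N18Rik rose. Snx29, a sorting nexin, had 956 counts in Control and 3304 in MSNP (log2 fold change 1.82, SE 0.373, edgeR adjusted p = 0.00206). Shisa9, an auxiliary subunit of glutamate receptors in neurons, had 1 count in Control and 30 in MSNP (log2 fold change 4.52, SE 0.843, edgeR adjusted p = 0.000953). The other 4 were Cep128 beside Dio2 (log2 fold change 0.81), Lmbrd2 beside Il7r (0.92), Slc26a11 beside Card14 (0.64) and Lrpap1 beside Dok7 (0.33), all far smaller than the ratios of the genes they flank.

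The partner genes through which these proteins are known to act could be tested in MSNP against Control, since they are not among the 10. Of 135 partner genes in 9 lists 99 were tested, and 26 were upregulated and 14 downregulated, 40.4% in all. The share over all tested genes was 22.8%, but these include genes with as few as 10 summed counts. The partner genes were not matched to them for level, and the lists were chosen with earlier results of these data known. No enrichment of partner genes is therefore read from these shares. The median log2 fold change of the partner genes was 0.06, beside -0.05 over all tested genes.

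The thyroid hormone genes moved both ways, 3 up and 3 down of 11 tested (median log2 fold change 0.11). Hr, a corepressor of thyroid hormone receptors and a known thyroid hormone target, fell by 2.96 on the log2 scale from 0.335 to 0.0409 CPM (SE 0.701, edgeR adjusted p = 0.00599). Klf9, another target, rose by 0.69 (SE 0.0859, edgeR adjusted p = 2.05e-05). The receptor Thra fell by 0.64 and its partner Rxrb fell by 0.50 (edgeR adjusted p = 4.37e-05 and 2.03e-05). The other deiodinases, Dio1 and Dio3, had no count in any library.

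Of the 17 genes of the interleukin-7 receptor axis 5 rose and 2 fell (median -0.03). The feedback inhibitor Socs1 rose by 1.29 (SE 0.284, edgeR adjusted p = 0.00342) and Socs3 fell by 0.85 (SE 0.125, edgeR adjusted p = 0.000112). The survival gene Mcl1 (log2 fold change 0.66, edgeR adjusted p = 1.72e-06) and the signal transducer Stat5b (0.62, edgeR adjusted p = 3.94e-05) also rose. In the complex that Card14 nucleates, 4 of 15 genes rose and 2 fell (median -0.03). The deubiquitinase Tnfaip3, an NF-κB target that ends the signal, rose by 1.20 (SE 0.129, edgeR adjusted p = 4.52e-06), the paracaspase Malt1 by 0.82 and the ubiquitin ligase Traf6 by 0.51 (edgeR adjusted p = 0.00291 and 0.00655). With the 6 libraries alone the last 2 had adjusted p of 0.0702 and 0.113. The 2 genes that fell, named after their values were seen, were Bcl10 (log2 fold change -0.36, edgeR adjusted p = 0.0115), which Card14 engages directly, and the myeloid scaffold Card9 (-0.45, edgeR adjusted p = 0.0250).

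Among the genes of DOK adaptors and the MuSK synapse 3 of 10 rose and 2 fell (median -0.03). The receptor clustering gene Rapsn rose by 3.0 (SE 0.624, edgeR adjusted p = 0.00229) from 0.0377 to 0.330 CPM, and the agrin receptor Lrp4 by 1.20 (SE 0.144, edgeR adjusted p = 1.48e-05), while the kinase gene Musk had 3 counts in all libraries. The myeloid adaptors Dok2 and Dok3 fell by 1.09 and 0.94 (edgeR adjusted p = 4.19e-06 and 2.94e-05). In the somatostatin list 1 of 9 rose and 2 fell (median -0.10). The phosphatase Ptpn6 fell by 0.98 (SE 0.0598, edgeR adjusted p = 1.00e-08) and the arrestin Arrb2 by 0.93 (SE 0.111, edgeR adjusted p = 1.41e-05). The G protein subunit Gnai3 rose by 0.30 (edgeR adjusted p = 0.00385), with an edgeR adjusted p of 0.0972 in the 6 libraries alone. The hormone gene Sst and the receptors Sstr1, Sstr3 and Sstr4 had no count.

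In the list of TspanC8 tetraspanins and ADAM10 2 of 13 rose and 2 fell (median 0.05). The tetraspanin Cd82 rose by 0.89 (SE 0.10, edgeR adjusted p = 7.22e-06) and the ADAM10 substrate Notch1 fell by 1.08 (SE 0.216, edgeR adjusted p = 0.00167). With the 6 libraries of the comparison alone, edgeR gave an adjusted p of 0.0554 for Notch1, 0.211 for Cd63 and 0.222 for Tspan17. The calls of Cd63 (0.49, edgeR adjusted p = 0.0310) and Tspan17 (-0.51, edgeR adjusted p = 0.0373) were also lost without single libraries. Cd63 had an adjusted p of 0.0588 and 0.0510 without MSNP replicate 1 or 2 and 0.0769 and 0.0730 without Control replicate 1 or 2. Tspan17 had 0.164 and 0.0889 without MSNP replicate 1 or 2, 0.142 without Control replicate 3 and 0.050 to 0.051 without SNP100 replicate 3, SNP50 replicate 1 or HMSNP replicate 3.

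Of the 16 Hippo genes tested 7 rose, 0 fell and 9 did not pass the test (median log2 fold change 0.35). Wwc1, a scaffold that activates the pathway, rose by 2.57 (SE 0.122, edgeR adjusted p = 7.43e-10), from 2.82 ± 0.411 CPM in Control to 16.8 ± 1.49 CPM in MSNP (SD, n = 3), and was the only partner gene called up in SNP100 as well (4.24 CPM, edgeR adjusted p = 0.0421). Amotl1 (1.03), Ptpn21, the closest relative of Ptpn14 in the list (1.02), and the tumor suppressor Nf2 (0.64) followed on the log2 scale (edgeR adjusted p = 0.000842, 0.00132 and 0.000981). With the 6 libraries alone the edgeR adjusted p of Ptpn21 was 0.0518. Yap1, the effector that Ptpn14 restrains, and its targets Ccn2 and Ankrd1 had no count in any library.

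Of the immunoglobulin and B-cell receptor genes, 7 were counted often enough to test. The transcription factor gene Irf4 rose by 2.67 (SE 0.247, edgeR adjusted p = 9.37e-07) and Ighm fell by 0.65 (SE 0.114, edgeR adjusted p = 0.000583). Park7, the gene of DJ-1, was tested as a partner of Efcab6 and did not pass (log2 fold change -0.22).

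**Figure D4:**
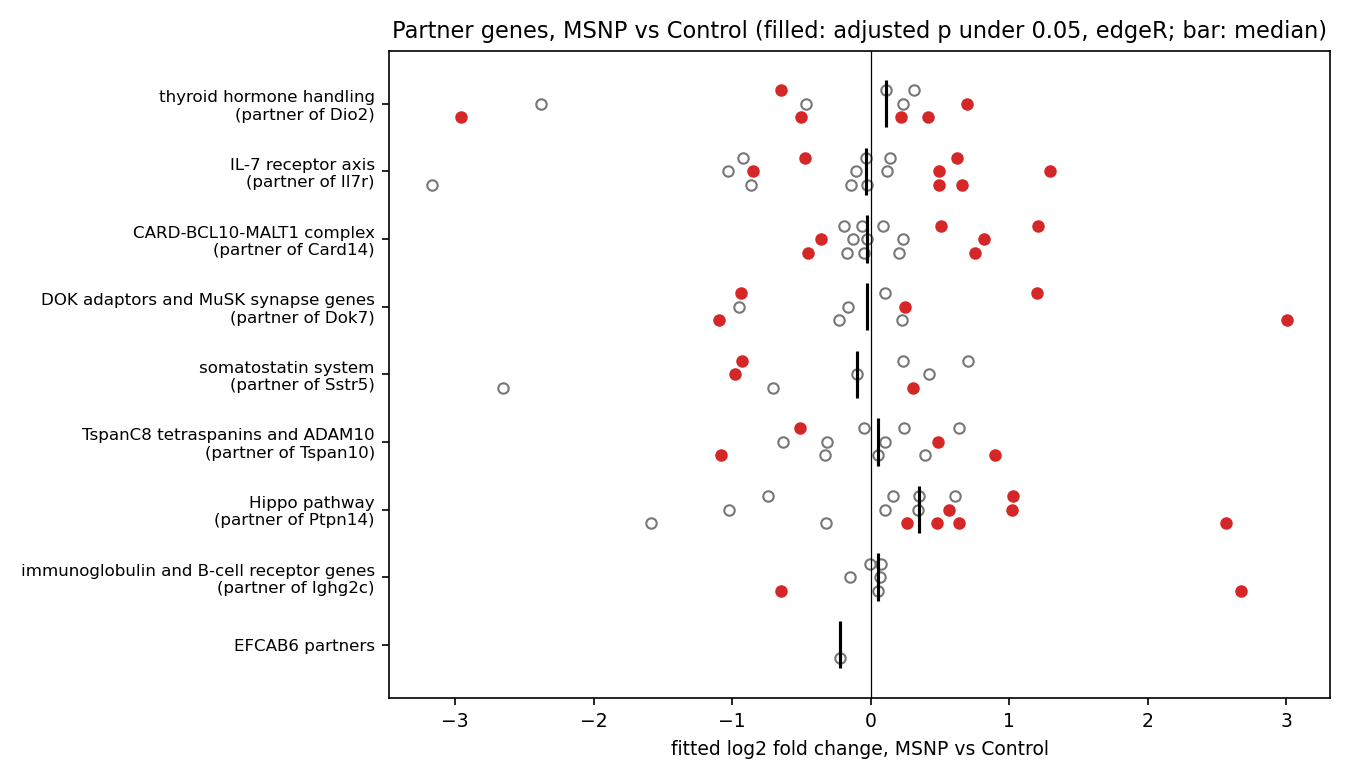
Fitted log2 fold change in MSNP against Control of the 99 tested partner genes, by list. Each point is a gene, red filled points have an adjusted p under 0.05 in edgeR, gray open points do not, and black bars are medians of a list. The list medians lie between -0.22 and 0.35, and the Hippo list is the one with 7 filled points to the right of 0 and none to the left.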

How the data were processed

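The authors made directional libraries of poly(A) RNA and mapped paired reads of 150 bases to GRCm39. The submitters' processing notes list cutadapt 1.16, STAR 2.7.9a and featureCounts 1.6.3. Use of strand and the annotation release are not given in the sources used here. The deposited values are raw whole-number counts per gene and library, not normalized, with replicates kept apart. Groups came from the sample labels, and doses, diameters and the time from the paper's methods. Symbols, positions and exon lengths came from GENCODE vM39, which held 56630 of the identifiers. The other 556 stayed in the fit.

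Counts were fitted in R 4.3.3 with edgeR 4.0.16 (TMM, a model of all 15 libraries, quasi-likelihood test, Benjamini-Hochberg adjustment, threshold 0.05) after a filter of at least 10 summed counts. Ratios of summed counts over effective library sizes have exact conditional 95% intervals. No group whose counts form a denominator is at 0, so no bound was needed. Where a group sums to 1 to 3 counts (Ighg2c in HMSNP), the ratio is given with its counting interval, and the fitted log2 fold change depends on edgeR's prior count. Log2 CPM for correlations used a prior count of 2. The steps were tested on simulated counts.

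The genes, partner lists, markers and motifs were chosen with earlier results of these data known. Named are the 10 genes, in each partner list up to 4 called genes with the largest log2 fold change, the 8 genes most like the mean profile and the one most like each gene, overlapping and neighboring genes, the 8 genes of highest MSNP level that met the same low-to-high criterion, and markers. Listed genes with under 10 counts that are named were added for their role after their values were seen. The alternatives were DESeq2 1.42.0, RLE factors, the filterByExpr filter, no filter, the 6 libraries of a comparison, a replicate block, and leaving out each library. Some genes of the partner lists are not reported here by name.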

Additional observations from a re-analysis of the deposited data

Results flagged for a closer look

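A difference between particles, tested directly, was found for 4 of the genes. Between the HMSNP- and SNP100-treated groups the fitted log2 fold change was -2.34 for Dio2, -2.52 for Sstr5, -1.99 for Card14 and -3.45 for Ighg2c. Between the HMSNP- and SNP50-treated groups it was -2.06 for Sstr5, -1.66 for Card14 and -3.40 for Ighg2c. These are the differences of their effects against the shared Control libraries, at unequal doses. In each of the 7 the adjusted p of edgeR was under 0.05, but only Card14, in both comparisons, and Sstr5, against SNP100, kept it in every alternative.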

How the results depend on the processing

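The replicate block changed no count of called genes among the 10: with it 2 were called for SNP100, 1 for SNP50 and 0 for HMSNP against Control, 4 for HMSNP and 0 for SNP50 against SNP100, and 3 for HMSNP against SNP50, with 41 partner genes in place of 40. Same-numbered libraries of different groups did not deviate together (r of -0.517 to 0.573 over 30 pairs, median 0.0156, 10 above 0.1), so the number was not taken as a pairing. DESeq2 called 4, 2 and 1 genes for SNP100, SNP50 and HMSNP against Control. The 6 libraries of a comparison alone gave 0 for SNP100, 0 for SNP50 and 24 partner genes, with fewer libraries to estimate the spread. Leaving out a library in turn gave 1 to 3 calls for SNP100, 0 to 2 for SNP50 and 0 to 2 for HMSNP against Control, 2 to 7 for HMSNP and 0 for SNP50 against SNP100, 1 to 5 for HMSNP against SNP50, and 32 to 53 partner genes (53 without Control replicate 2, 52 without replicate 3). Leaving out a library changed the sign of some uncalled log2 fold changes, whose ranges were -0.50 to 0.62 for Dio2, -0.17 to 0.59 for Tspan10 and -0.10 to 0.50 for Efcab6 in HMSNP against Control, -0.038 to 0.17 for Il7r in HMSNP against SNP50, and -0.32 to 0.064 for Dok7 and -0.44 to 0.42 for Ighg2c in SNP50 against SNP100. The cause was not tested. Of the other values of single genes 1833 kept their direction and side of the threshold, 43 lost and 19 gained a call. Depth limits the genes outside MSNP, where counts of 0 to 78 per library leave wide intervals.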

Other observations

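The same criterion, a Control mean under 0.5 CPM with an MSNP mean of at least 1 CPM and 8 times as high, was met by 23 other genes. Their SNP100 mean was above Control in 21 and their SNP50 mean in 20. The criterion chose them for low Control means, so means above Control are favored by the choice. No share of all tested genes is set beside these counts, and nothing on the nonporous particles is read from them. Their HMSNP mean was below the SNP100 mean in 11 of 23, whereas it was below in 10 of the 10 genes. By edgeR 2 of the 23 were lower and 1 was higher in HMSNP than in SNP100. The HMSNP mean was below Control in 3 of the 23, and in Sstr5, Card14, Dok7, Ptpn14 and Ighg2c among the 10. These counts describe the groups of genes and the difference between them was not tested.

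Cd28, a costimulatory receptor best known from T cells, had means of 11.2 CPM in Control, 21.7 in SNP100, 19.3 in SNP50, 10.8 in HMSNP and 130 in MSNP. The osteoclast markers summed to 400 to 635 CPM in the Control libraries and 141 to 148 CPM in the MSNP libraries. The fall came mostly from Nfatc1, a calcium-regulated transcription factor gene, with means of 486 and 89.8 CPM. The markers did not all fall. Means of Acp5, Ocstamp (1.65 and 0.187 CPM) and Mmp9 (0.463 and 0.181 CPM) were also lower in MSNP than in Control. Those of Ctsk (10.3 CPM in Control and 18.5 CPM in MSNP), Dcstamp (3.18 and 3.67 CPM) and Oscar (0.125 and 0.236 CPM) were higher in MSNP. Calcr had no count in any library.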
